A study of Octopus bimaculoides with 16 samples.

Results

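In the California two-spot octopus, Octopus bimaculoides, 36 genes of 15842 measured had more messenger RNA in optic lobe, eye and statocyst than in olfactory organ, mantle skin and both kinds of sucker sample. They were chosen by their measured values: each had at least 10 CPM (reads scaled to a library total of 1000000) in optic lobe, eye and statocyst, and in each of these it was at least 4-fold higher, on CPM + 1, than in every one of the other 4 tissues. The contrast between the first 3 tissues and the other 4 is therefore the rule itself and is given as a description. How low a gene lay elsewhere was limited by the rule too, which sets a ceiling there but no order among the other 4 tissues. How its reads divided among optic lobe, eye and statocyst was constrained less, and which genes neighboured it was not constrained.

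The study sequenced bulk messenger RNA from sensory organs and comparison tissues. Optic lobe (labelled as brain tissue), eye, statocyst, olfactory organ, skin of the mantle and dissociated cells of sucker rims had 1 library each. The whole sucker cup of arm R1 had 2 libraries, labelled automated and manual, and entered the rule as their mean CPM. Every library was run on 2 lanes. The deposited table has 1 column per library, which was taken to hold both lanes. The labels name no animals, ages, sexes, treatments or genotypes, so how far animals vary is unknown and tissues were compared without a test. In bulk tissue, fewer cells of a type and less RNA per cell cannot be told apart.

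The optic lobe is the part of the cephalopod brain that receives the axons of the retina's photoreceptors and processes vision. The eye is a camera-type organ with the retina at its back, and the statocyst is a fluid-filled balance organ whose hair cells and nerve cells report gravity and rotation. The olfactory organ, the skin and the suckers are also innervated: octopus suckers carry chemosensory and mechanosensory cells and are served by nerve cells in the arm. No gene name was available for any of the 36: the reference table lists 34 of them with an identifier and no functional name, and 2 were not found in it. They are called by identifier, no role is given to any, and the tissue labels could not be checked against named marker genes. No sequence of these genes was used here.

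Library totals were 5373482 reads in optic lobe, 12241705 in eye and 15167497 in statocyst, and from 4782744 (mantle skin) to 36916825 (rim cells) in the rest. A single read was thus worth 0.186 CPM in optic lobe, 0.209 CPM in mantle skin and 0.0271 CPM in rim cells. Intervals below are 95% intervals of counting error, and cover nothing else. CPM is not divided by gene length, so levels are compared across tissues within a gene and not between genes.

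Together the 36 genes held 1.20% of optic lobe reads (95% Wilson interval 1.19 to 1.21), 0.699% of those of statocyst (0.695 to 0.703) and 0.537% of those of eye (0.533 to 0.541). Olfactory organ gave them 0.0518% of its reads (0.0506 to 0.0529), rim cells 0.0257%, mantle skin 0.0252%, and the automated and manual whole sucker libraries 0.0209% and 0.0211%. Among the comparison tissues the share was highest in olfactory organ, with an interval above that of every other one. LOC106879642 and LOC106868732 had the most reads in optic lobe, eye and statocyst, and were picked as a pair by these tissues. They made up 40.2% of the 36 genes' reads in optic lobe, 34.1% in eye, 34.8% in statocyst and 34.7% in olfactory organ. In rim cells the pair made up 10.5%, and in mantle skin and whole sucker cup 17.2 to 18.2%. Rim cells held more reads of LOC106871424 (1616) and LOC106879489 (1422) than of either gene of the pair.

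**Figure D1:**
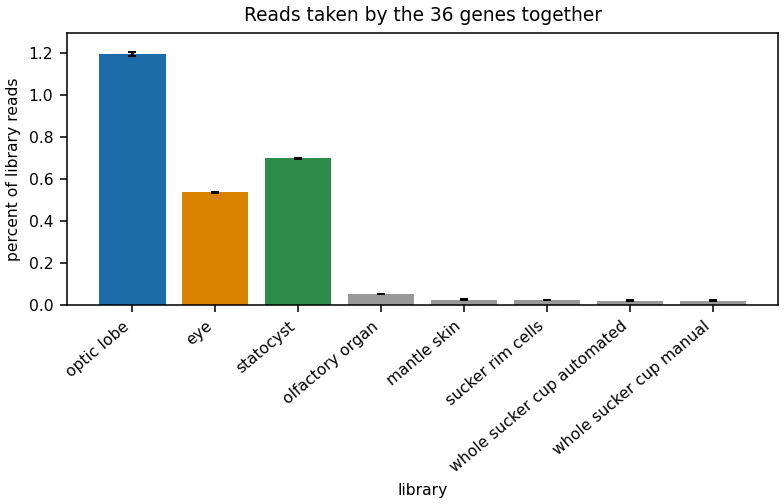
Percent of each library's reads (vertical axis) taken by the 36 genes together, for the 8 libraries, with 95% Wilson intervals of counting error as error bars. Optic lobe, eye and statocyst (1.20, 0.537 and 0.699%) stand above the other libraries (0.0209 to 0.0518%), as the choice of genes requires.

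By the rule, 36 of the 5422 genes with at least 10 CPM in optic lobe, eye and statocyst passed, which is 0.664%. Taken singly, optic lobe exceeded every comparison tissue 4-fold for 387 of the 6299 genes with at least 10 CPM there (6.14%), eye for 683 of 8121 (8.41%) and statocyst for 1150 of 8533 (13.5%). These 3 comparisons share their comparison libraries, so genes common to them are not counted as a result beyond the rule's own 36. For each of the 36 the margin was the log2 ratio of CPM + 1 between the lowest of the 3 tissues and the highest comparison tissue. Its median was 2.51, against -0.88 over the 5422 genes, and 13 genes lay below 5-fold, 8 exceeded 8-fold and 1 exceeded 16-fold.

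The genes just inside the threshold were LOC106878865, LOC106879489 and LOC106869384, with margins of 2.03, 2.09 and 2.12. Just outside lay LOC106880238, LOC106884382 and LOC106868418, with margins of 1.93, 1.91 and 1.91. LOC106880238 had 561 CPM in optic lobe, 242 CPM in eye and 68.0 CPM in statocyst against 17.1 CPM in olfactory organ. It missed through statocyst only. Another 2 genes exceeded 4-fold in all 3 tissues but fell short of 10 CPM in 1 of them: LOC106878989 with 8.17 CPM in eye and LOC106872302 with 7.65 CPM in statocyst.

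**Figure D2:**
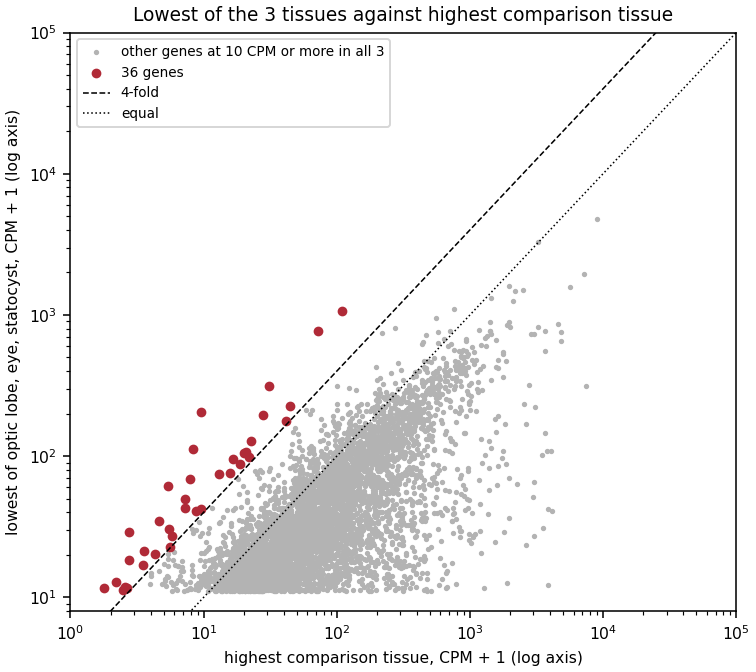
Each point is a gene with at least 10 CPM in optic lobe, eye and statocyst; the horizontal axis is the highest of the 4 comparison tissues and the vertical axis the lowest of the 3 tissues, both as CPM + 1 on log axes. The 36 genes lie on or above the dashed 4-fold line, and most of the 5422 genes lie below the dotted line of equality.

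LOC106879642 and LOC106868732 had the most reads. LOC106879642 had 2033 CPM in optic lobe, 1064 CPM in eye and 1591 CPM in statocyst. Elsewhere it had 108 CPM in olfactory organ, 18.8 CPM in mantle skin, 17.8 CPM in rim cells, and 23.1 and 25.9 CPM in the automated and manual whole sucker libraries. The lowest of the 3 tissues, eye, was 9.88 times olfactory organ (9.37 to 10.4), while olfactory organ itself stood well above skin and suckers. LOC106868732 had 2784 CPM in optic lobe, 769.7 CPM in eye and 846 CPM in statocyst, then 71.8 CPM in olfactory organ, 25.1 CPM in mantle skin, 9.24 CPM in rim cells, and 12.8 and 12.5 CPM in the whole sucker libraries. Its optic lobe level was 3.62 times that of eye (3.52 to 3.71) and 3.29 times that of statocyst (3.21 to 3.37).

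LOC106879613 had the widest margin, a log2 ratio of 4.43. It had 1214 CPM in optic lobe, 298 CPM in eye and 205 CPM in statocyst, and at most 8.57 CPM (41 reads, in mantle skin) elsewhere. Its levels in olfactory organ, rim cells and the whole sucker libraries were 8.27, 4.14, 3.38 and 2.41 CPM. Even statocyst, the lowest of the 3, was 24.0 times mantle skin (17.6 to 33.4). LOC106871625 followed with a margin of 3.76, from 249 CPM in optic lobe, 112 CPM in eye and 201 CPM in statocyst against 7.36 CPM in olfactory organ, 5.85 CPM in mantle skin, 1.52 CPM in rim cells, and 4.31 and 3.13 CPM in the whole sucker libraries.

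LOC106874079 had a margin of 3.50, with 78.5 CPM in optic lobe, 60.4 CPM in eye and 152 CPM in statocyst. Its comparison levels were 3.996 CPM in olfactory organ, 4.18 CPM in mantle skin, 1.27 CPM in rim cells, and 4.40 and 4.46 CPM in whole sucker cup, so that skin, olfactory organ and cup could not be ordered at this depth. LOC106869919 (margin 3.40) had 143 CPM in optic lobe, 28.0 CPM in eye and 124 CPM in statocyst, against 1.75 CPM in olfactory organ, 0.836 CPM in mantle skin, 1.52 CPM in rim cells, and 0.338 and 0.362 CPM in the whole sucker libraries. The last 2 values rest on 4 and 3 reads.

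LOC106871424 and LOC106867297 lay closer to the threshold. LOC106871424 had 685 CPM in optic lobe, 548 CPM in eye and 226 CPM in statocyst, with 43.8 CPM in rim cells, 35.8 CPM in olfactory organ, 110 reads (23 CPM) in mantle skin, and 19.9 and 22.4 CPM in whole sucker cup. Its statocyst level was 5.16 times that of rim cells (4.86 to 5.48). LOC106867297 had 809 CPM in optic lobe, 376 CPM in eye and 97.2 CPM in statocyst, 21.1 CPM in olfactory organ and 20.5 CPM in mantle skin. In suckers it was far lower, at 1.19 CPM in rim cells and 3.21 and 3.26 CPM in whole sucker cup. LOC106879489 had 445 CPM in optic lobe, 226 CPM in eye and 177 CPM in statocyst, and 40.7 CPM in olfactory organ, 38.5 CPM in rim cells, 24.3 CPM in mantle skin, and 27.6 and 24.2 CPM in whole sucker cup. Olfactory organ and rim cells thus lay above skin and cup, with intervals that do not overlap theirs. Statocyst was 4.35 times olfactory organ for this gene, with an interval (3.98 to 4.77) that reaches below 4-fold.

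**Figure D3:**
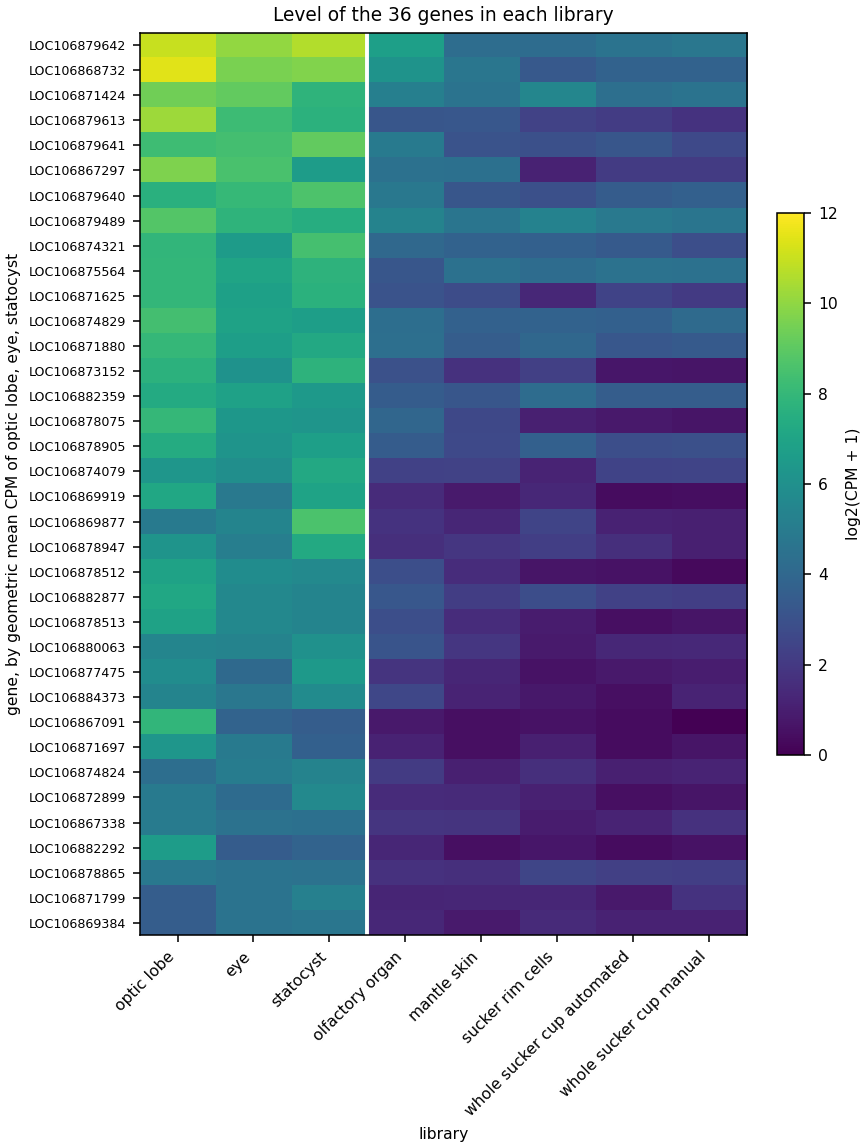
Level of the 36 genes (rows, ordered by the geometric mean CPM of optic lobe, eye and statocyst) in the 8 libraries (columns), coloured by log2(CPM + 1). The white line separates the 3 tissues that the rule requires to be high from the other libraries, and olfactory organ is the brightest column to its right for 25 of the 36 genes when the 2 whole sucker libraries are averaged.

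Within optic lobe, eye and statocyst the 36 genes were not evenly spread. Optic lobe had the highest CPM for 22 genes, statocyst for 14 and eye for 0, numbers that became 29, 5 and 2 with the size factors described below. Among all 5422 genes with at least 10 CPM in the 3 tissues, optic lobe was highest for 31.7%, statocyst for 53.3% and eye for 15.01%, against 61.1%, 38.9% and 0% of the 36. The median gene had 43.8% of its summed CPM in optic lobe, 32.4% in statocyst and 21.4% in eye. The counting interval of the ratio between the highest and the next tissue lay above 1 for 21 of the 22 optic lobe genes and 12 of the 14 statocyst genes.

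The order of optic lobe and statocyst depended on how libraries were scaled. The 10 genes with the most reads in each library took 21.9% of the optic lobe reads and 5.81% of the statocyst reads, and median-of-ratios size factors, which use the typical gene in place of the library total, raised optic lobe 1.81-fold against statocyst and 1.38-fold against eye. With them optic lobe was highest for 29 of the same 36 genes (80.6%, against 55.0% of the 5422), statocyst for 5 (13.9% against 28.1%) and eye for 2 (5.56% against 16.9%). All 22 genes highest in optic lobe kept that order, while 7 of the 14 statocyst genes became highest in optic lobe and 2 in eye. The 2 that became highest in eye were LOC106874824 and LOC106869384.

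The ratio between the highest and the lowest of the 3 tissues had a median of 2.82-fold, against 2.27-fold over the 5422 genes, and ran from 1.23-fold to 22.0-fold. It was below 2-fold for 7 genes and at least 4-fold for 9 (25.0%, against 21.7% of the 5422 genes). LOC106867091 was the most uneven. It had 235 CPM in optic lobe but 13.3 CPM in eye and 10.7 CPM in statocyst, so optic lobe was 17.7 times eye (15.01 to 20.9) and 22.0 times statocyst (18.7 to 26.1). The counting interval of its statocyst level, 9.10 to 12.5 CPM, spans the floor of 10 CPM. With size factors that level was 8.13 CPM, and the gene no longer passed. LOC106882292 had 99.7 CPM in optic lobe, 10.2 CPM in eye and 13.3 CPM in statocyst, and optic lobe was 7.49 times statocyst (6.36 to 8.85). Both are also at least 4-fold above all other tissues in optic lobe, as is LOC106879613, whose optic lobe level was 4.08 times that of eye (3.91 to 4.25).

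LOC106869877 had the opposite profile, with 389.8 CPM in statocyst, 41.9 CPM in eye and 29.6 CPM in optic lobe. Statocyst was 9.30 times eye (8.50 to 10.2) and 13.2 times optic lobe (11.3 to 15.5), and with size factors it was still 7.09 times the next tissue, eye. This was the single gene of the 36 that stood at least 4-fold above all other tissues in statocyst. LOC106878947 had 155 CPM in statocyst, 74.3 CPM in optic lobe and 33.9 CPM in eye, a ratio of statocyst to optic lobe of 2.08 (1.87 to 2.32) that became 1.15 with size factors.

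At the even end, LOC106878865 had 26.8 CPM in optic lobe, 22.6 CPM in eye and 21.8 CPM in statocyst. Eye and statocyst differed by less than counting error for this gene, with a ratio of 1.04 (0.881 to 1.22). LOC106867338 had 31.3, 22.1 and 20.4 CPM in optic lobe, eye and statocyst, and LOC106880063 had 43.4, 39.9 and 65.9 CPM. For LOC106880063 the optic lobe and eye levels could not be told apart by counting error (ratio 1.09, 0.925 to 1.27), whereas statocyst was 1.52 times optic lobe (1.32 to 1.76), an order that turned with size factors.

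A further group of genes, most of them outside the naming rule, completes the account of this division. Among those highest in optic lobe under either scaling were LOC106874829, LOC106871880, LOC106882359, LOC106878905, LOC106882877 and LOC106871697. LOC106874829 had 339 CPM in optic lobe, 120.2 CPM in eye and 104.5 CPM in statocyst, against 19.3 CPM in olfactory organ, 12.1 CPM in mantle skin, 12.6 CPM in rim cells, and 142 and 138 reads in the libraries of whole sucker cup. LOC106871880 had 257, 106 and 150.1 CPM in optic lobe, eye and statocyst, and 20.0 CPM in olfactory organ, its highest comparison tissue. Both genes were thus also detected in skin and suckers, with no comparison library at 0. LOC106882359 had 162, 116 and 87.4 CPM in optic lobe, eye and statocyst, and LOC106878905 had 165, 73.9 and 107 CPM. For both, rim cells were the highest comparison tissue, with 661 and 443 reads. LOC106882877 had 141, 47.3 and 41.5 CPM in the 3 tissues and 8.55 CPM in olfactory organ, a ratio of its lowest to its highest comparison level of 4.85 with a counting interval of 3.99 to 5.94. With size factors the log2 margins of LOC106882359 and LOC106882877 were 1.94 and 1.98, under the 4-fold threshold. LOC106871697 had 78.3 CPM in optic lobe, 29.2 CPM in eye and 11.9 CPM in statocyst against at most 1.19 CPM, in olfactory organ, and its statocyst level was 9.03 CPM with size factors, under the floor of 10 CPM.

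The 7 genes highest in statocyst by CPM but in optic lobe with size factors were LOC106880063, LOC106879641, LOC106884373, LOC106874321, LOC106873152, LOC106877475 and LOC106872899, of which the last 4 are given here. LOC106874321 had 356 CPM in statocyst, 239 CPM in optic lobe and 94.1 CPM in eye, and 15.6 CPM in olfactory organ. LOC106873152 had 217 CPM in statocyst, 208 CPM in optic lobe and 67.8 CPM in eye, against 6.87 CPM in olfactory organ and 0.676 and 0.603 CPM in whole sucker cup. Eye was the lowest of the 3 tissues by CPM for each of these 4 genes. LOC106877475 had 88.9 CPM in statocyst, 55.3 CPM in optic lobe and 15.9 CPM in eye, and LOC106872899 had 48.5, 29.0 and 17.3 CPM in the same order. Their highest comparison level, in olfactory organ, was 2.52 and 1.75 CPM. LOC106874824, LOC106871799 and LOC106869384 differed from these in that optic lobe was lowest by CPM, at 19.2, 10.8 and 10.6 CPM, below eye at 31.9, 22.7 and 22.8 CPM and statocyst at 40.1, 36.1 and 25.6 CPM. Optic lobe was also the lowest of the 3 with size factors for each of these.

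**Figure D4:**
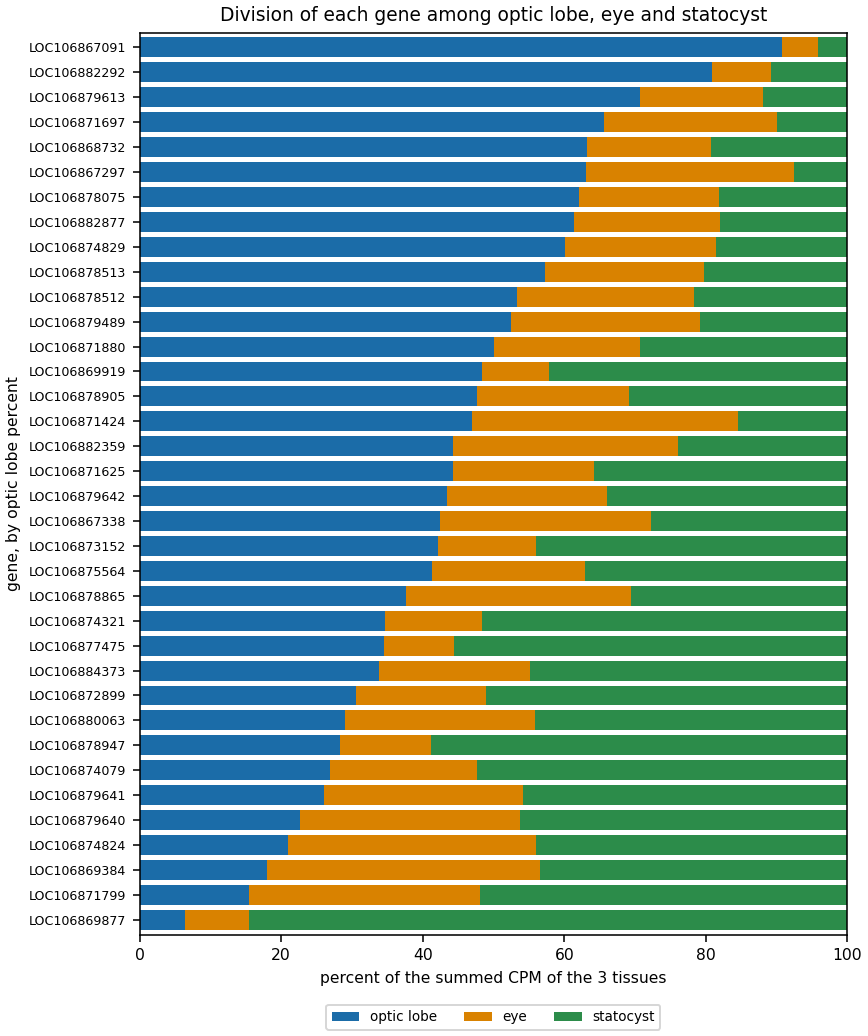
Percent of the summed CPM of optic lobe, eye and statocyst that each tissue holds, for each of the 36 genes, ordered by the optic lobe percent. Optic lobe runs from 6.41% in LOC106869877 to 90.7% in LOC106867091; median-of-ratios size factors raise optic lobe 1.81-fold against statocyst and put optic lobe first for 29 genes in place of 22.

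Levels in the comparison tissues were low but seldom absent. All 36 genes had reads in every library except LOC106867091, which had none in the manual whole sucker library (an exact 95% upper limit of 0.445 CPM). This gene was also the only one with less than 1 CPM in all 4 comparison tissues: 11 reads (0.771 CPM) in olfactory organ, 2 reads (0.418 CPM) in mantle skin, 18 reads (0.488 CPM) in rim cells and 4 reads (0.338 CPM) in the automated whole sucker library. Below 2 CPM in all 4 lay 7 of the 36 (19.4%), against 0.129% of the 5422 genes, a difference that the rule imposes: those 7 are all that exist among the 5422. At the other end, LOC106879642, LOC106871424, LOC106879489 and LOC106874829 reached 10 CPM in every comparison tissue, which is 11.1% of the 36 against 89.7% of the 5422, a difference to which the rule contributes. Of the 180 values of the 36 genes in the 5 comparison libraries, 37 rested on fewer than 10 reads.

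By CPM, olfactory organ was the highest comparison tissue for 25 of the 36 genes, rim cells for 7, whole sucker cup for 3 and mantle skin for 1. These counts take the highest value whatever its lead, and some leads lay within counting error. For LOC106867297 olfactory organ had 21.1 CPM and mantle skin 20.5 CPM, and for LOC106871697 olfactory organ had 1.19 CPM and rim cells 1.11 CPM. Among the 5422 genes olfactory organ was highest of the 4 for 45.4%, against 69.4% of the 36. Rim cells were highest for 32.6% of the 5422 and 19.4% of the 36, mantle skin for 19.03% and 2.78%, and whole sucker cup for 2.95% and 8.33%. Olfactory organ exceeded mantle skin for 31 genes (86.1%, against 61.6% of the 5422), whole sucker cup for 31 (86.1% against 71.0%) and rim cells for 27 (75.0% against 57.8%). The median level was 7.12 CPM in olfactory organ, 3.14 CPM in mantle skin, 2.84 CPM in rim cells and 2.34 CPM in whole sucker cup. Rim cells exceeded whole sucker cup for 22 of the 36 (61.1%), near the 67.7% of the 5422 genes. Size factors shifted log2 values by -0.23 in olfactory organ, -0.01 in mantle skin, -0.11 in rim cells, and 0.16 and 0.12 in the whole sucker libraries. Olfactory organ was lowered the most of the comparison libraries, by enough to turn a lead as small as that of LOC106867297 over mantle skin. The counts and shares of this paragraph thus depend in part on scaling. They were not repeated with size factors, so how far they change was not tested. The 36 genes were also chosen by their levels in these 4 tissues, and the 5422 were not. Which cells of the olfactory organ sample carried these reads was not tested.

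LOC106878075 is an example of a gene with olfactory organ above the other comparison tissues. It had 257 CPM in optic lobe, 81.3 CPM in eye and 75.2 CPM in statocyst, then 14.7 CPM in olfactory organ, 5.02 CPM in mantle skin, 1.06 CPM in rim cells, and 0.761 and 0.603 CPM in whole sucker cup. In LOC106875564 olfactory organ was instead the lowest comparison tissue, with 8.27 CPM below 20.9 CPM in mantle skin, 18.1 CPM in rim cells, and 22.2 and 21.2 CPM in whole sucker cup. Its levels in optic lobe, eye and statocyst were 245, 128 and 219 CPM. Both genes were chosen as examples after their values were seen.

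In the gene order of the reference assembly ASM119413v2, 33 of the 36 genes could be placed on 18 chromosomes, among 13929 measured genes. Of these 33, 5 were next to another of the 36, counting measured genes only. The share of all 13929 genes that lie next to one of the 36 was not worked out. The count is therefore a description, and clustering was not tested. On chromosome 23, LOC106879642, LOC106879641 and LOC106879640 followed one another. LOC106879641 had 311 CPM in optic lobe, 336 CPM in eye and 546 CPM in statocyst, then 30.1 CPM in olfactory organ, 7.53 CPM in mantle skin, 6.64 CPM in rim cells, and 8.37 and 5.31 CPM in whole sucker cup. LOC106879640 had 194 CPM in optic lobe, 266 CPM in eye and 395 CPM in statocyst, then 26.8 CPM in olfactory organ, 8.36 CPM in mantle skin, 6.58 CPM in rim cells, and 10.4 and 11.9 CPM in whole sucker cup.

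The 3 neighbours thus shared the step from olfactory organ down to skin and suckers as well as the step above olfactory organ. Eye was 9.88, 11.2 and 9.94 times olfactory organ for LOC106879642, LOC106879641 and LOC106879640, and statocyst was 14.8, 18.1 and 14.7 times olfactory organ. They parted most in optic lobe, where the ratio to olfactory organ was 18.9 (17.9 to 19.9), 10.3 (9.29 to 11.5) and 7.23 (6.43 to 8.16). In statocyst LOC106879641, at 18.1 (16.5 to 20.0), also lay above LOC106879642, at 14.8 (14.0 to 15.6). Of the reads of the 3 genes together, LOC106879642 held 80.1% in optic lobe (79.4 to 80.8) but 63.9% in eye, 62.8% in statocyst, 65.4% in olfactory organ and 54.2 to 60.1% in the other libraries. This share is a ratio within a library and does not depend on scaling. The measured genes on either side did not share the pattern: LOC106884006 had 0.744 CPM in optic lobe and 35.4 CPM in rim cells, and LOC106871450 had 131 CPM in optic lobe, 10.3 CPM in statocyst and 83.6 CPM in rim cells. Whether the 3 genes are similar enough in sequence to share reads was not tested.

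**Figure D5:**
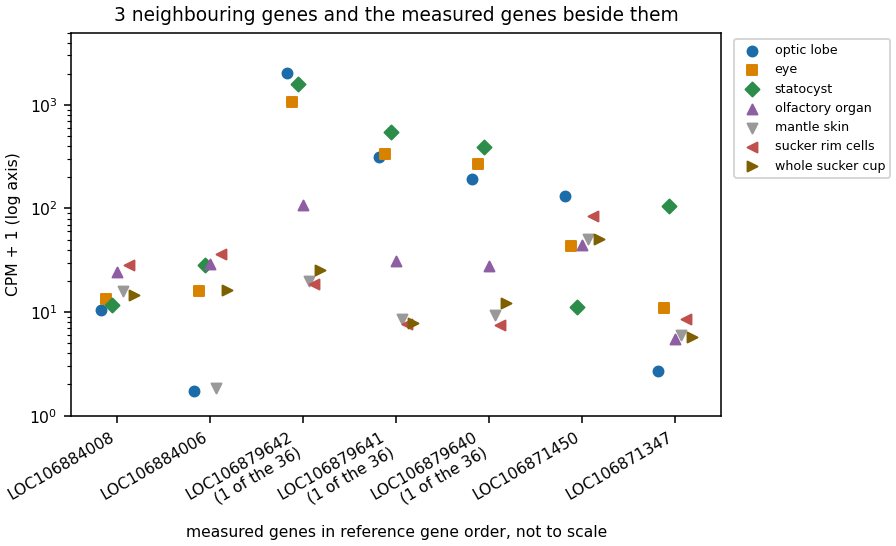
CPM + 1 (log axis) in the 7 tissues for LOC106879642, LOC106879641 and LOC106879640, with the 2 measured genes before and after them in reference order (horizontal positions are not to scale; whole sucker cup is the mean of its 2 libraries). In the 3 middle genes optic lobe, eye and statocyst lie above olfactory organ, which lies above skin and both sucker samples; the flanking genes show no such order.

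A second pair of neighbours stood on chromosome 1, LOC106878512 beside LOC106878075. LOC106878512 had 121 CPM in optic lobe, 56.7 CPM in eye and 49.1 CPM in statocyst, then 6.31 CPM in olfactory organ, 1.88 CPM in mantle skin, 0.623 CPM in rim cells, and 0.507 and 0.241 CPM in whole sucker cup. LOC106878513, next in identifier number and not found in the reference table, was close to it in every tissue. It had 120.03 CPM in optic lobe, 47.1 CPM in eye and 42.3 CPM in statocyst, then 6.31, 1.88 and 0.894 CPM in olfactory organ, mantle skin and rim cells, and 0.423 and 0.603 CPM in whole sucker cup. Olfactory organ held 90 reads of each and mantle skin 9 of each. Whether these are separate genes or pieces of 1 gene model, or share reads, was not tested, and the count of 36 takes them as 2. LOC106884382, one of the genes just outside the threshold, lay next to LOC106884373 on chromosome 3. It had 42.2 CPM in optic lobe, 54.2 CPM in eye and 94.5 CPM in statocyst against 10.5 CPM in olfactory organ, while LOC106884373 had 41.5, 26.1 and 54.9 CPM against 4.84 CPM.

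The 36 genes were set beside those that passed the same rule in just 2 of the 3 tissues. There were 106 such genes for optic lobe and eye, 214 for eye and statocyst, and 16 for optic lobe and statocyst. The missing tissue was low to different degrees. The median statocyst level of the optic lobe and eye genes was 12.8 CPM, the median optic lobe level of the eye and statocyst genes was 0.558 CPM, and the median eye level of the optic lobe and statocyst genes was 15.8 CPM. The median levels of the 36 genes were 153 CPM in optic lobe, 58.6 CPM in eye and 101 CPM in statocyst. In olfactory organ the median was 7.12 CPM for the 36 genes, 7.99 CPM for the optic lobe and eye genes, 2.94 CPM for the eye and statocyst genes and 5.26 CPM for the optic lobe and statocyst genes. These groups were separated by the same values, so no test was made between them.

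The 2 whole sucker libraries give the sole measure of spread without a difference in tissue. For the 36 genes they differed by a median of 1.12-fold on CPM + 1 and by at most 1.94-fold, in LOC106871799 (0.761 and 2.41 CPM, 9 and 20 reads). On this scale only 2 genes differed by more than 1.5-fold. Adding 1 CPM shrinks ratios at low levels, as for LOC106884373 with 0.423 and 1.33 CPM. The median whole sucker level of the 36 genes was 2.34 CPM, so spread at their levels in optic lobe, eye and statocyst was not measured. Without the automated library LOC106871799 no longer reached 4-fold, and the number of genes stayed at 36 because another gene passed. The other 35 remained without the automated library, and all 36 without the manual one.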

How the data were processed

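The deposited table gives 15842 genes in 8 columns as log2(CPM + 1), made by the authors. The unit was read from the values: after inversion every column summed to 1000000, and 100% of values were whole multiples of 1 read within a tolerance of 0.01 reads, from which reads were recovered. Trim Galore and kallisto are named in the submitters' processing notes. Versions, genome build and lane merging were not given in the sources used here. Reads served for totals, shares and intervals, for thinning and for choosing the genes used for size factors, and not for the rule.

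The genes, and the lists and settings, were chosen with earlier results of these data known. No gene was tested for significance. Levels carry exact 95% Poisson intervals, ratios of reads exact Clopper-Pearson intervals (whole sucker reads pooled) and shares Wilson intervals. A floor of 10 CPM, a pseudocount of 1 CPM and 4-fold define the genes. Named genes are those with the highest geometric mean over the 3 tissues (8), the widest margins (6), the largest lead of 1 tissue (3 each), the most even levels (3), the threshold's neighbours (3 on each side) and the extremes of comparison level. Genes named for their position, their identifier number, a change under another setting or as examples were added after their values were seen. Identifiers were matched to the RefSeq gene table of ASM119413v2 (14305 of 15842 found), used for gene order only. The code of the rule was checked on simulated reads, in which genes without a planted difference had the same set level in every library and varied by counting error only. That check cannot show how the rule behaves where tissues or animals differ. Python 3.11.15 with numpy, pandas and scipy 1.17.1 was used.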

Additional observations from a re-analysis of the deposited data

How the results depend on the processing

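With both whole sucker libraries the rule gave 36 genes, and without either one it gave 36. A pseudocount of 0.1 CPM gave 41 genes, no floor 38 and thinning every library to 4782744 reads, in a single random draw, 31. A 4-fold demand on the lower limit of the read ratio, put to the 36 only, left 33. That ratio has no pseudocount, so at low levels it runs above the ratio on CPM + 1 that the rule uses. The count moved further with a pseudocount of 5 CPM (20 genes), a floor of 50 CPM (18), 2-fold (134) and 8-fold (8), which admit fewer or more genes by construction. Leaving out one comparison tissue gave 49 genes without rim cells, 54 without olfactory organ, 39 without mantle skin and 40 without whole sucker cup. Median-of-ratios size factors gave 34 genes, of which 29 were among the 36. The genes chosen with them took 1.04% of the reads of optic lobe, 0.524% of eye and 0.723% of statocyst. Without the 2 genes with the most reads in these tissues, the remaining 34 took 0.717%, 0.354% and 0.456%. With size factors optic lobe was highest for 29 of the 36 genes, eye for 2 in place of 0, and statocyst for 5 in place of 14. These factors shifted log2 values by 0.46 in optic lobe, -0.39 in statocyst, -0.23 in olfactory organ, -0.11 in rim cells, and 0.16 and 0.12 in the whole sucker libraries. A limit of 0.5 CPM in every comparison tissue in place of 1 CPM left 0 genes in place of 1, and a limit of 2 CPM left 7. No gene's margin fell below 0 under any setting run, which the choice of genes at 4-fold from these same values made likely in advance. With no floor, at 2-fold, with a pseudocount of 0.1 CPM or with a comparison tissue left out, none of the 36 could be lost. In all settings other than 8-fold and 50 CPM, 19 of the 36 stayed past the threshold. The counting-bound setting, the ones without mantle skin or cup and those without the 2 genes were chosen after seeing the data. Planned searches of promoters and proteins were not run, since no sequence was used here. With 1 library per tissue, depth limits mainly the comparison levels, and nothing here measures variation between animals.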
